A study of Mus musculus with 18 samples.

Results

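TKO cells are mouse embryonic stem cells (ESCs) that lack the DNA methyltransferases Dnmt1, Dnmt3a and Dnmt3b, and the comparison described here is their first 4 days of differentiation as embryoid bodies (EBs). It rests on the 2 arrays labelled TKO EBs at day 4 and the 2 arrays labelled undifferentiated TKO ESCs at day 0, which are 4 of the 18 arrays of the series, and all 35512 probe sets of the array were compared. The series measured wt, Dnmt1-/- and TKO cells of strain J1 (129Sv/Jae) on Affymetrix Mouse Gene ST arrays in the ESC state and in EBs of day 4 and day 16, with 2 arrays for each of the 9 groups. EBs were formed in hanging drops, and EB medium holds no leukaemia inhibitory factor (LIF). The TKO genotype is dnmt1-/-, dnmt3a-/-, dnmt3b-/- at both times, so day 4 and day 0 differ in differentiation and not in genotype. The wt and dnmt1-/- cells of the same days, 4 arrays each, are used to show where the TKO change differed. Each genotype is 1 cell line, so genotype and line cannot be told apart.

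ESCs are the culture form of the early epiblast. They are held in the naive state by LIF, which acts through Stat3, and by a circuit of transcription factors around Pou5f1, Nanog, Sox2, Klf4 and Esrrb. When LIF is withdrawn and cells aggregate, the naive genes are shut off, genes of the later epiblast such as Fgf5 and Otx2 come on, and cells then pass through a state like the primitive streak on their way to mesoderm and endoderm. De novo methylation by Dnmt3a and Dnmt3b accompanies this exit and helps to keep the promoters of naive and germ line genes shut afterwards.

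Values are log2 signals as the authors deposited them, on which 1 unit is a 2-fold difference in signal. They ran from 1.22 to 13.85 on the 4 TKO arrays, whose medians lay between 5.80 and 5.85. The 2 ESC arrays correlated at r = 0.988 and the 2 EB arrays at r = 0.991 over all probe sets. With 2 arrays a group, a difference was called when limma gave at least a 2-fold change and an adjusted p (Benjamini-Hochberg, all 35512 probe sets) under 0.05, and errors given after ± are the standard errors (SE) of the limma fit. All per-array values are given in the order of replicates 1 and 2. Of the 3 deleted genes, Dnmt1 stood at 8.42 and 8.41 in TKO ESCs against 9.60 and 9.77 in wt ESCs, Dnmt3a at 7.42 and 7.65 against 8.87 and 9.45, and Dnmt3b at 7.33 and 7.45 against 9.80 and 10.002. All 3 were lower in both TKO arrays than in both wt arrays and none was at the bottom of the scale. The sources used here do not say whether these probe sets cover the deleted exons.

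Between day 0 and day 4 TKO cells gained more transcripts than they lost. Of the 35512 probe sets, 807 (2.27%) were called higher and 319 (0.898%) were called lower in EBs. In all of these both EB arrays lay on the same side of both ESC arrays. With 2 arrays a group the call itself makes this likely, so it adds no support. The median change over all probe sets was -0.03. Counted over the 19938 genes that have a probe set of their own, each by its brightest one, 540 genes (2.71%) were called higher and 232 (1.16%) lower, 772 (3.87%) in all, with a median change of -0.05. These shares are the background for every gene list below. The lists were chosen with earlier results of these data known. Over their 621 measured genes together, 13% were called higher and 6.44% lower, so a share above the background is common among them. Another 222 called probe sets, 167 higher and 55 lower, have no gene symbol and are not named here.

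**Figure D1:**
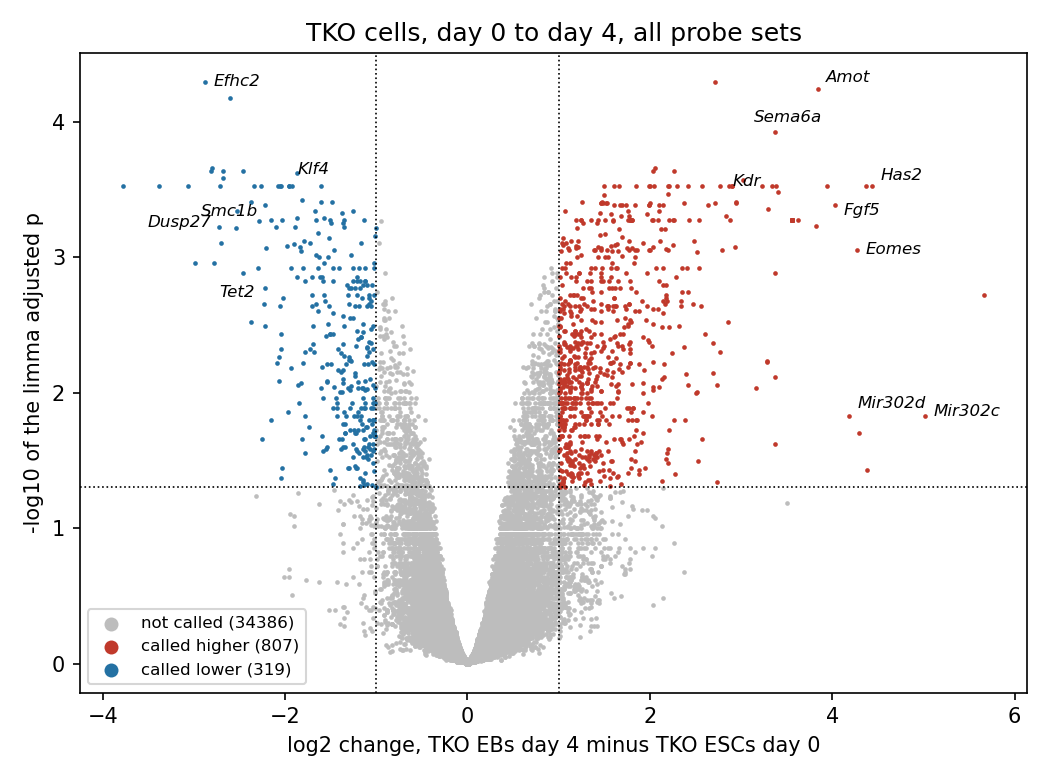
Log2 change from TKO ESCs to day 4 TKO EBs (x axis) against -log10 of the limma adjusted p (y axis) for all 35512 probe sets, with called probe sets in colour and the 2-fold and 0.05 lines dotted. The rises reach further from 0 than the falls: Mir302c lies at 5.02 and Eomes at 4.27, while Dusp27, among the deepest falls of named genes, lies at -2.73.

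The largest rise among named genes was that of Mir302c, and the other 3 Mir302 hairpins were among the largest. The next after Mir302c was Has2, the hyaluronan synthase of early mesenchyme, which went from 4.40 and 4.28 in the ESC arrays to 8.86 and 8.69 in the EB arrays (4.44 ± 0.44, limma adjusted p = 3.0e-04). Fndc3c1 went from 4.85 and 4.74 to 9.41 and 8.92, and Gdpd3, a lysophospholipase D, from 4.05 and 4.02 to 7.94 and 8.02. In each of these 3 the ESC arrays lay below the array medians and the EB arrays were within 0.49 of each other, so the rise was far larger than the spread between arrays. The other genes with the largest rises were Eomes, Fgf5, Amot, Klhl6, Irgm1, Kdr, Nefm and Sema6a, with changes of 3.37 to 4.27. Sema6a, a transmembrane semaphorin, had ESC arrays of 5.82 and 5.61 and EB arrays of 9.20 and 8.98.

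The deepest falls were smaller. Dusp27 (an atypical phosphatase gene) fell from 8.996 and 8.40 to 5.67 and 6.26, a change of -2.73 ± 0.34 (limma adjusted p = 6.0e-04). Efhc2, an X-linked gene for an EF-hand protein of cilia, fell from 8.97 and 8.96 to 6.26 and 6.47 (-2.60 ± 0.19). Morc1, which silences transposons in male germ cells, fell from 9.53 and 9.24 to 6.47 and 7.24 (-2.53 ± 0.29). The remaining genes with the deepest falls were Accsl, Tcl1, Pcolce, Tex14, Fbxo15, Tdrd12, Tet2, Slc7a1, Lrrc2, Jam2, Smc1b and Dnmt3l, at -2.46 to -2.09. Germ line genes (Morc1, Tex14, Tdrd12, Smc1b, Dnmt3l) and genes of the naive ESC state (Tcl1, Fbxo15, Tet2, Jam2) are 9 of these 15. Without 1 of the TKO arrays, the calls of 3 of these falls were lost. Fbxo15 and Jam2 were not called without ESC replicate 1 (-2.24 and -1.98), ESC replicate 2 (-2.26 and -2.32) or EB replicate 1 (-1.78 and -1.55), and Dnmt3l was not called without ESC replicate 1 (-1.97) or EB replicate 1 (-1.61). Nefm was not called without any 1 of the 4 TKO arrays, at changes of 2.81 to 3.94.

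The Mir302 cluster makes microRNAs of the pluripotent epiblast that target cell cycle inhibitors and Lefty genes among others. In GRCm38.p6 its 4 Mir302 hairpins and Mir367 lie on the plus strand of chromosome 3 within 580 bases (chr3:127545228-127545807), inside the span of the protein-coding gene Larp7. The mature microRNAs of this cluster and of the Mir106a cluster on chromosome X are shown to compare their seeds, which decide the targets of a microRNA. Sequences are those of RefSeq (GRCm38.p6) for the hairpins named here, 5′ to 3′, with the seed (bases 2 to 8) in capitals.
miR-302b-3p: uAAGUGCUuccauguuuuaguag
miR-302d-3p: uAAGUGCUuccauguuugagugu
miR-302c-3p: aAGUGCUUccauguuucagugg
miR-106a-5p: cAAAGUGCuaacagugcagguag
miR-20b-5p: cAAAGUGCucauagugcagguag
miR-367-3p: aAUUGCACuuuagcaaugguga
miR-363-3p: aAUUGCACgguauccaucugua
miR-302b-3p and miR-302d-3p share the seed AAGUGCU. The same letters begin at base 1 of miR-302c-3p as RefSeq gives it and at base 3 of miR-106a-5p and miR-20b-5p. miR-367-3p and miR-363-3p, from different chromosomes, share the seed AUUGCAC. None of the other seeds shown is shared between the clusters. The array reads RNA of the hairpin and its precursor, not the mature microRNA.

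All 4 Mir302 hairpins were called higher in TKO EBs, from ESC signals of at most 3.78. Mir302c went from 3.38 and 2.85 in ESCs to 8.996 and 7.28 in EBs (5.02 ± 1.08, limma adjusted p = 0.015). Mir302d went from 3.41 and 3.78 to 8.74 and 6.83, Mir302b from 2.998 and 2.89 to 8.10 and 6.38, and Mir302a from 2.97 and 3.40 to 8.53 and 6.61. In every one of the 4 the EB arrays were far above the ESC arrays, and EB replicate 1 was above EB replicate 2 by 1.71 to 1.92. Mir367 showed the same order of arrays, from 2.24 and 2.12 to 6.84 and 4.52, but its change of 3.50 ± 1.02 was not called (limma adjusted p = 0.065). The calls depend on single arrays. Without ESC replicate 1, ESC replicate 2 or EB replicate 1, Mir302b, Mir302c and Mir302d were not called. Mir302a was not called without any 1 of the 4 arrays, and the changes in these fits were 3.24 to 5.35. Larp7, named here after its values were seen because it overlaps the cluster, stood at 9.63 and 9.47 in ESCs and 9.71 and 9.51 in EBs (0.06 ± 0.21, limma adjusted p = 0.92). On chromosome X, Mir106a went from 3.62 and 3.91 to 6.49 and 5.11 and was called higher, though not without ESC replicate 1 (1.89) or EB replicate 1 (1.35). Mir19b-2 (1.03 ± 0.26) was called too, but not without any 1 TKO array (0.85 to 1.20). Mir20b (1.02 ± 0.35) and Mir363 (2.15 ± 1.08) of that cluster were not called, and EB replicate 1 was again the brighter EB array. Of the 24 measured hairpins in the list of ESC and differentiation microRNAs, 6 were called higher and none lower, with a median change of 0.22. At an unadjusted p under 0.05 none of them was lower either. In wt and in Dnmt1-/- cells none of the 24 was called in either direction. At an unadjusted p under 0.05, 0 were higher and 3 lower in wt cells, and 5 higher and 0 lower in Dnmt1-/- cells. For the 4 Mir302 hairpins the lowest wt EB signal minus the highest TKO EB signal was -2.38 to -1.80, while the TKO EB arrays were themselves 1.71 to 1.92 apart. A high EB signal of these hairpins is therefore not shown to be particular to TKO cells. The difference from the wt change was called for Mir106a (2.60) and for none of the Mir302 hairpins.

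The circuit of naive pluripotency was only partly lowered. Of 34 measured genes of core and naive pluripotency, 15 were called lower and 19 were not called (27 lower and 0 higher at an unadjusted p under 0.05), with a median change of -1.07, against -0.05 over all genes. In wt cells 28 of the same 34 were called lower over these days (2.77% of all genes were), with a median of -2.39. The 3 core factors were not called in TKO cells. Pou5f1 stood at 11.64 and 11.45 in the ESC arrays and at 11.42 and 11.31 in the EB arrays (-0.18 ± 0.41, limma adjusted p = 0.88). Nanog stood at 11.18 and 11.17 and then 10.74 and 10.63 (-0.49 ± 0.47), and Sox2 at 10.84 and 10.87 and then 9.85 and 10.27 (-0.80 ± 0.33). Both EB arrays were below both ESC arrays for each of the 3, by amounts that did not pass the test. In wt cells the same genes were called lower, by -2.64, -2.59 and -3.59. The TKO change was higher than the wt change by 2.79 ± 0.46 for Sox2 (limma adjusted p = 0.013), which was called, and by 2.46 ± 0.58 for Pou5f1 (limma adjusted p = 0.063) and 2.09 ± 0.66 for Nanog (limma adjusted p = 0.19), which were not called. Since EBs are mixtures, fewer cells of a type and less RNA per cell cannot be told apart here.

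**Figure D2:**
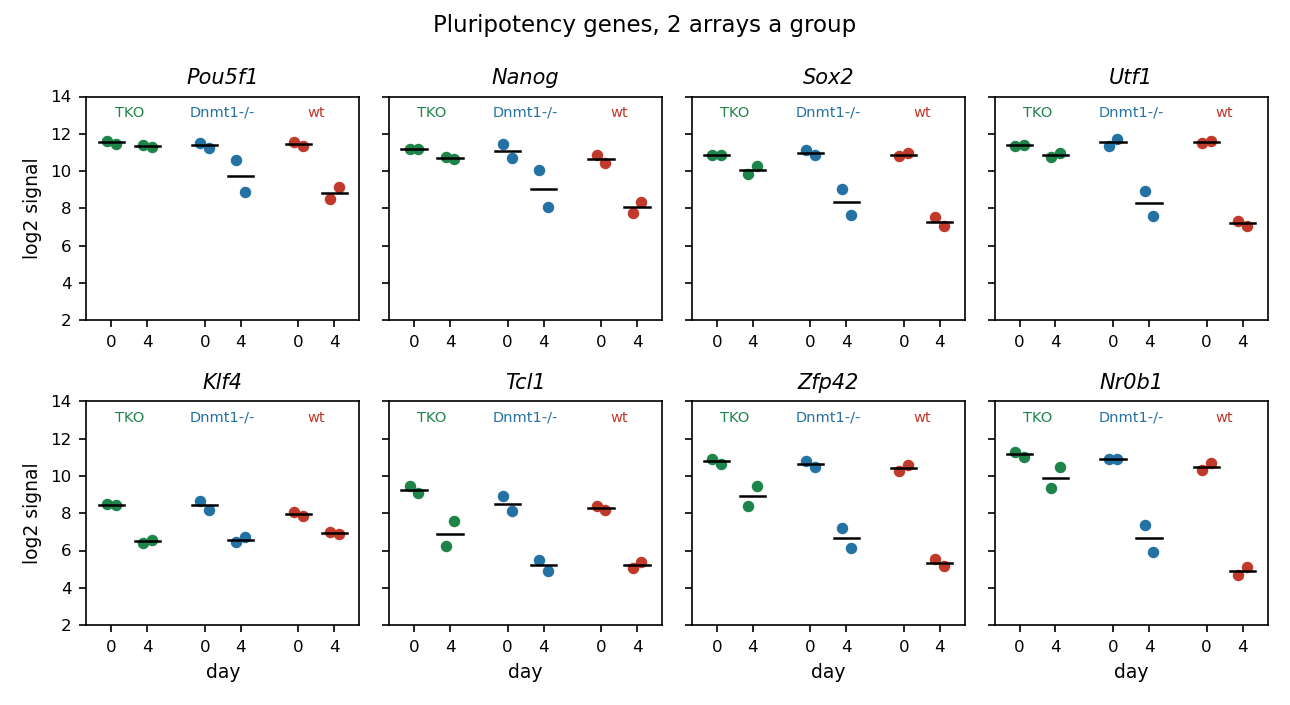
Log2 signal (y axis) of 8 pluripotency genes at day 0 and day 4 (x axis) in TKO, Dnmt1-/- and wt cells, with 1 point per array and a line at the mean of 2 arrays. Klf4 and Tcl1 are lower in both TKO EB arrays than in both TKO ESC arrays by more than 1 unit, while Pou5f1 and Nanog move little in TKO cells and fall in wt cells.

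Among the genes that did fall, Klf4, a naive factor directly under Stat3, dropped from 8.47 and 8.44 to 6.42 and 6.56 (-1.96 ± 0.19, limma adjusted p = 3.0e-04). Tcl1, a coactivator of Akt, fell from 9.47 and 9.07 to 6.22 and 7.57. Zfp42 (Rex1), the classic marker of the naive state, fell from 10.90 and 10.65 to 8.39 and 9.45, and Esrrb, an orphan receptor of the naive circuit, from 9.88 and 9.97 to 7.76 and 8.92. For Tcl1, Zfp42 and Esrrb EB replicate 1 was lower than EB replicate 2 by 1.06 to 1.35, and both were below the ESC arrays. Gdf3 (-1.33), Klf2 (-1.20), Fgf4 (-1.15), Nr5a2 (-1.12), Dppa2 (-1.12), Zfp57 (-1.11) and Gbx2 (-1.07) were also called. Only Klf4, Tcl1, Tet1 and Tet2 of the 15 were called in each of the 4 fits that left out 1 TKO array. Without ESC replicate 1, Zfp42 (-1.73), Esrrb (-1.62), Gdf3 (-1.19), Fgf4 (-1.01), Nr5a2 (-0.99), Dppa2 (-1.12), Zfp57 (-1.03) and Gbx2 (-1.05) lost their calls, and the same 8 lost them without ESC replicate 2 or EB replicate 1, at changes of -1.98 to -0.61. Fbxo15 and Jam2 are given above. Klf2 was not called without ESC replicate 2 (-1.12) or EB replicate 1 (-0.99), and Gbx2 was not called without EB replicate 2 either (-1.01). The number of pluripotency genes called lower was 5 and 4 without either ESC array, and 4 and 17 without EB replicate 1 and 2.

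Some pluripotency genes that fell in wt cells were not called in TKO cells. Utf1, a chromatin protein of ESCs, stood at 11.37 and 11.38 in ESCs and 10.75 and 10.97 in EBs (-0.52 ± 0.31, not called), whereas in wt cells it went from 11.53 and 11.64 to 7.34 and 7.04. The TKO change was higher than the wt change by 3.88 ± 0.43 (limma adjusted p = 0.0033). Nr0b1 (Dax1), an orphan receptor that partners Pou5f1, had 11.30 and 11.03 and then 9.33 and 10.50 in TKO cells (-1.25 ± 0.44, not called, with both EB arrays below both ESC arrays), and 10.32 and 10.68 and then 4.66 and 5.13 in wt cells, a difference between the changes of 4.36 ± 0.63 (limma adjusted p = 0.0075). Gdf3 and Dppa2 fell in both genotypes, and the fall was smaller in TKO cells by 3.03 ± 0.40 and 2.92 ± 0.41. The called differences of Utf1, Nr0b1, Gdf3 and Dppa2 held in each of the 8 fits without 1 TKO or wt array. Those of Zfp42 (3.21), Klf2 (1.75), Esrrb (2.52), Klf5 (1.42), Dppa4 (2.52), Dppa5a (3.11) and Sox2 were lost in 2 to 7 of these fits. Over the pluripotency list, 11 of 34 genes had a TKO change called higher than the wt change and 1, Tbx3 (-2.74 ± 0.45), a lower one, where the shares over all genes are 1.31% and 0.431%. Tbx3, which also acts in early mesoderm and endoderm, was called higher in wt EBs (1.89) and stood at 8.11 and 7.36 and 6.60 and 7.17 in TKO cells.

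Of 15 measured genes of the LIF and Stat3 pathway, 5 were called lower in TKO cells and none higher (9 lower and 2 higher at an unadjusted p under 0.05), with a median of -0.84 against -0.71 in wt cells, and none of the 15 had a called difference from the wt change. Socs3, the feedback inhibitor of the receptor, fell from 8.28 and 8.56 to 6.54 and 6.56 (-1.87 ± 0.22, limma adjusted p = 5.1e-04), and Bcl3, an Nf-kB cofactor induced by Stat3, from 7.81 and 7.80 to 6.23 and 6.04 (-1.67 ± 0.19). The calls of these and of Klf4 held without any 1 TKO array. The changes in wt cells were -1.51 for Socs3, -1.64 for Bcl3 and -1.02 for Klf4, and none of the 3 differences between TKO and wt was called (-0.36 ± 0.31, -0.03 ± 0.27 and -0.94 ± 0.27). The kinase gene Pim1 (-1.06) and Gbx2 were called lower too, Pim1 not without ESC replicate 2 (-0.88) or EB replicate 1 (-0.92). Stat3 itself (-0.84 ± 0.22), Lifr (-0.88 ± 0.20) and Il6st (-0.04 ± 0.17), the factor and the receptor chains, did not reach a 2-fold change.

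Genes of the formative and primed epiblast formed the list with the largest share called higher. Of 25 measured, 12 were called higher and 1, Dnmt3l, lower, with a median of 0.97. In wt cells 5 were called higher (3.02% of all genes were) and the median was -0.53. Fgf5, the growth factor that marks the postimplantation epiblast, went from 5.55 and 5.97 in the ESC arrays to 9.96 and 9.63 in the EB arrays (4.03 ± 0.45, a 16.4-fold rise, limma adjusted p = 4.1e-04). Both EB arrays were above both wt EB arrays (6.71 and 8.02), and the TKO change exceeded the wt change by 3.02 ± 0.64 (limma adjusted p = 0.036). Otx2, a homeobox factor of the anterior epiblast, rose from 8.14 and 8.38 to 10.04 and 9.83 (1.68 ± 0.38). Pim2, a kinase gene, rose from 8.20 and 8.08 to 11.21 and 10.61, and Sall2, a zinc finger factor, from 6.22 and 6.13 to 7.83 and 7.88.

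The remaining epiblast genes called higher were Car4 (3.34), Krt18 (2.69), Cdh2 (2.47), Cldn6 (1.81), Sox11 (1.60), Sox4 (1.60), Sfrp2 (1.39) and Dnmt3b (1.35). Cdh2, the N-cadherin gene of cells that leave the epithelium, rose alike in TKO (2.47) and wt cells (2.40), a difference of 0.08 ± 0.54 that was not called. For Otx2 (2.48 ± 0.54), Pim2 (3.995 ± 0.69), Sall2 (1.73 ± 0.27), Cldn6 (1.52 ± 0.31), Sfrp2 (2.19 ± 0.33) and Dnmt3b (1.88 ± 0.34) the TKO change was called higher than the wt change, with wt changes between -1.22 and 0.29. The difference of Sfrp2 held in each of the 8 fits without 1 TKO or wt array, and those of the other 5 and of Fgf5 were lost in 3 to 7 of them. As for the rise itself, Otx2 was not called without any 1 TKO array (1.56 to 1.80), Dnmt3b not without ESC replicate 1 (1.29) or EB replicate 1 (1.20), and Pim2 (2.47) and Sfrp2 (1.21) not without EB replicate 1. The list had 8 genes called higher without EB replicate 1 and 10 or 11 without 1 of the other arrays.

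**Figure D3:**
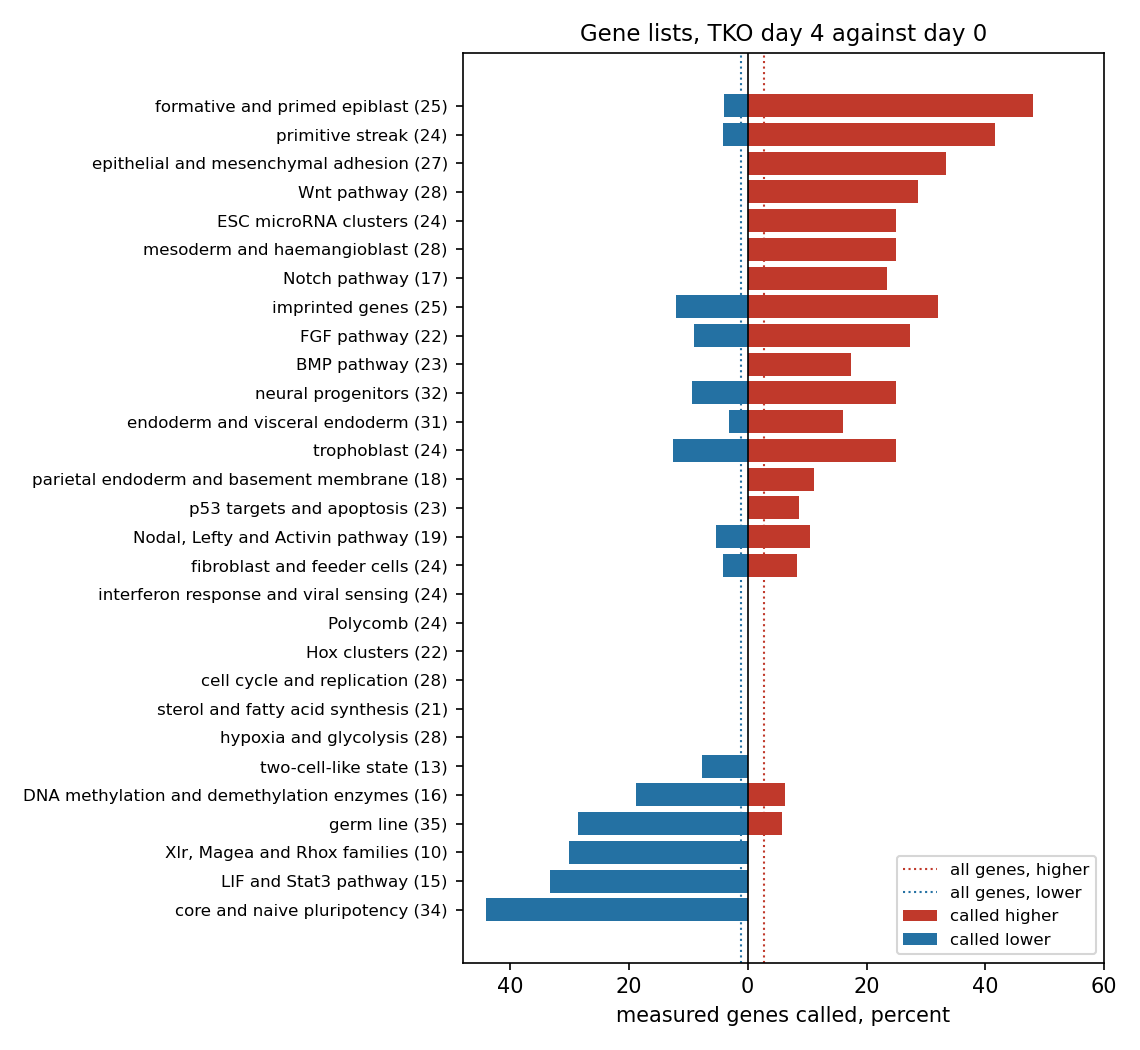
Share of the measured genes of each list (number measured in parentheses) called higher (right) or lower (left) in TKO EBs at day 4 against TKO ESCs, in percent, with dotted lines at the shares over all genes (2.71% and 1.16%). The epiblast and primitive streak lists reach furthest to the right, and the pluripotency list, followed by the LIF list, furthest to the left.

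FGF ligands and their feedback genes moved in both directions. Of 22 measured, 6 were called higher and 2 lower, with a median of 0.32. The ligand Fgf8 rose from 6.87 and 6.87 to 8.64 and 7.94, while Fgf4 and Fgf17 (-1.54 ± 0.28) fell. Dusp4, a phosphatase induced by Erk, rose from 6.56 and 6.42 to 9.07 and 9.48 (2.79 ± 0.37, limma adjusted p = 8.9e-04), and held without any 1 TKO array. Dusp6, another phosphatase of Erk, rose from 8.27 and 8.004 to 10.55 and 10.14, and Spry2, an inhibitor of the receptor cascade, from 9.05 and 8.74 to 10.05 and 9.90, but neither call held without any 1 array (2.005 to 2.41 and 0.92 to 1.23). Fgf8 was not called without either ESC array (1.42 and 1.42) or EB replicate 1 (1.07), and Fgf17 not without ESC replicate 2 (-1.46) or EB replicate 2 (-1.45). Fgf10 (1.14) was not called without any 1 array either (0.96 to 1.31). Fgf3, which rose in wt EBs (2.52), stood at 5.41 and 5.85 and 5.63 and 5.60 in TKO cells, a difference of -2.53 ± 0.36 (limma adjusted p = 0.0068) that held in all 8 fits without 1 TKO or wt array.

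Of 24 measured genes of the primitive streak, 10 were called higher and 1 (Fgf17) lower, with a median of 0.98. In wt cells 10 were also called higher and the median was 0.84. Eomes, the T-box factor of the streak, went from 4.80 and 5.33 to 9.49 and 9.18 (4.27 ± 0.57, a 19.3-fold rise, limma adjusted p = 8.8e-04). Mixl1, a homeobox factor of mesendoderm, went from 5.46 and 5.90 to 9.09 and 8.84 (3.28 ± 0.59). Amot, a membrane scaffold of the Hippo pathway, went from 5.10 and 4.96 to 8.81 and 8.92 (3.84 ± 0.27), the smallest adjusted p of the list. For these 3 no ESC array lay above 5.90 and no EB array below 8.81, and the changes in wt cells (2.75, 2.66 and 4.31) did not differ from them by a called amount. The Wnt ligand Wnt8a (2.39), the Wnt inhibitor Frzb (2.51), the retinoic acid hydroxylase Cyp26a1 (2.27), the apelin receptor Aplnr (1.49), Axin2 (1.17) and Snai1 (1.09) were called higher as well. Of the 10, only Eomes and Amot were called in each fit without 1 TKO array. Mixl1, Aplnr and Axin2 were not called without ESC replicate 1 (3.06, 1.19 and 1.03) or EB replicate 1 (3.16, 1.41 and 0.94). Frzb was not called without ESC replicate 2 (2.28) or EB replicate 1 (2.38), Wnt8a not without either ESC array (2.49 and 2.30) or EB replicate 1 (1.88), and Cyp26a1 (2.18 to 2.35) and Snai1 (1.03 to 1.15) not without any 1 array. The gene T (Brachyury) was not analysed here.

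In the same list 3 genes had a TKO change called lower than the wt change and none a higher one. Cdx2, the caudal factor of posterior streak and trophoblast, stood at 6.002 and 6.16 in ESCs and 6.46 and 6.35 in EBs, while wt EBs reached 8.90 and 8.41 (difference of the changes -1.93 ± 0.33, limma adjusted p = 0.016). Foxa2, a factor of node and endoderm, stood at 6.21 and 6.25 and 5.82 and 5.55, with a difference of -1.29 ± 0.23 from the wt change. Aplnr rose in both, with a difference of -2.16 ± 0.36. These 3 differences were lost in 3 to 5 of the 8 fits without 1 TKO or wt array.

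Among Nodal signalling genes, 2 of 19 were called higher and 1 lower. The ligand Nodal stood at 9.44 and 9.06 in ESCs and 9.38 and 9.003 in EBs (-0.06 ± 0.34), where wt cells dropped from 9.02 and 8.78 to 6.46 and 6.91. Its antagonist Lefty1 stood at 9.003 and 8.84 and 7.96 and 8.71 in TKO cells and dropped from 8.90 and 9.31 to 4.97 and 5.31 in wt cells, and the difference of 3.38 ± 0.50 (limma adjusted p = 0.0075) held in all 8 fits without 1 array. Lefty2 was 8.83 and 9.02 and 9.60 and 9.61 in TKO cells, with a difference of 4.004 ± 0.88, and that of Nodal was 2.16 ± 0.48, and both were lost in each of these fits. Cfc1 (Cryptic), a Nodal coreceptor of the lateral mesoderm, behaved the other way. It stood at 5.77 and 6.04 and 5.64 and 5.46 in TKO cells and rose from 5.78 and 5.80 to 8.57 and 8.70 in wt cells, a difference of -3.20 ± 0.32 (limma adjusted p = 0.0033). The activin antagonist Fst rose from 6.74 and 6.68 to 10.24 and 9.51 (3.17 ± 0.62) and the Nodal effector Foxh1 from 7.59 and 7.59 to 8.49 and 8.69. Fst was not called without either ESC array (3.20 and 3.13) or EB replicate 1 (2.80), and Foxh1 not without EB replicate 2 (0.90).

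Of 28 Wnt pathway genes, 8 were called higher and none lower, with a median of 0.75, and 1 was lower at an unadjusted p under 0.05. Besides Wnt8a, Frzb, Axin2 and Sfrp2, these were the R-spondin Rspo3, from 5.05 and 5.20 to 6.79 and 6.54, and the receptors Fzd2 (1.15), Fzd3 (1.20) and Fzd7 (1.15). Rspo3 was called in every fit without 1 TKO array, and its change differed from that in wt cells by -1.89 ± 0.34, a call lost in 6 of the 8 fits without 1 TKO or wt array. Fzd2 was not called without either ESC array or EB replicate 1, Fzd7 not without ESC replicate 1 or either EB array, and Fzd3 not without EB replicate 1, at changes of 0.93 to 1.26.

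Of 23 genes of BMP signalling, 4 were called higher and none lower, with 2 lower at an unadjusted p under 0.05. Id3 rose from 6.60 and 5.79 to 8.56 and 8.10 (2.14 ± 0.33) and Id4 from 6.21 and 6.23 to 7.93 and 8.57 (2.03 ± 0.27, limma adjusted p = 8.4e-04). Both encode dominant negative helix-loop-helix proteins, and both held without any 1 TKO array. Id4 did not rise in wt cells (-0.11), a difference of 2.13 ± 0.38. Smad1, a transducer of the pathway, rose from 6.85 and 6.47 to 8.01 and 8.02 but was not called without any 1 TKO array (1.16 to 1.55). Msx1 rose from 5.78 and 6.22 to 7.45 and 7.21 and held in all 4 of those fits, but its relative Msx2 stood at 5.90 and 5.84 and 6.08 and 6.32 while wt EBs reached 9.19 and 9.45 (difference -3.02 ± 0.40, limma adjusted p = 0.0056). Bmp7 (-1.98 ± 0.27) and Smad6 (-2.01 ± 0.34) also had TKO changes lower than those of wt cells. The differences of Msx2 and Bmp7 held in all 8 fits without 1 TKO or wt array, that of Id4 was lost in 5 and that of Smad6 in 4.

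Of 28 mesoderm and haemangioblast genes, 7 were called higher and none lower (2 lower at an unadjusted p under 0.05), with a median of 0.48. In wt cells 14 were called higher, with a median of 1.06. Kdr (Flk1), the VEGF receptor of haemangioblasts, rose from 5.18 and 5.41 to 8.49 and 8.91 (3.41 ± 0.36, limma adjusted p = 3.3e-04), Flt1, the other VEGF receptor, from 5.09 and 5.76 to 7.94 and 7.67, and Etv2, the ETS factor that starts the endothelial programme, from 5.84 and 6.17 to 8.49 and 7.82. For all 3 the EB arrays lay at least 1.65 above the ESC arrays, the calls held without any 1 TKO array, and the changes did not differ from those in wt cells (4.12, 1.69 and 1.16) by a called amount. Pdgfra, a receptor of paraxial mesoderm, rose from 5.44 and 5.36 to 6.92 and 7.45, with a difference of -1.99 ± 0.41 from wt cells that was lost in 7 of the 8 fits without 1 array. Tbx20 (1.92), Cdh5 (1.70) and Lmo2 (1.05) were called higher, but Tbx20 not without ESC replicate 2 (1.72) or either EB array (1.94 and 1.91), Cdh5 not without ESC replicate 1 (1.48) or EB replicate 2 (1.37), and Lmo2 not without any 1 array (0.87 to 1.24).

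**Figure D4:**
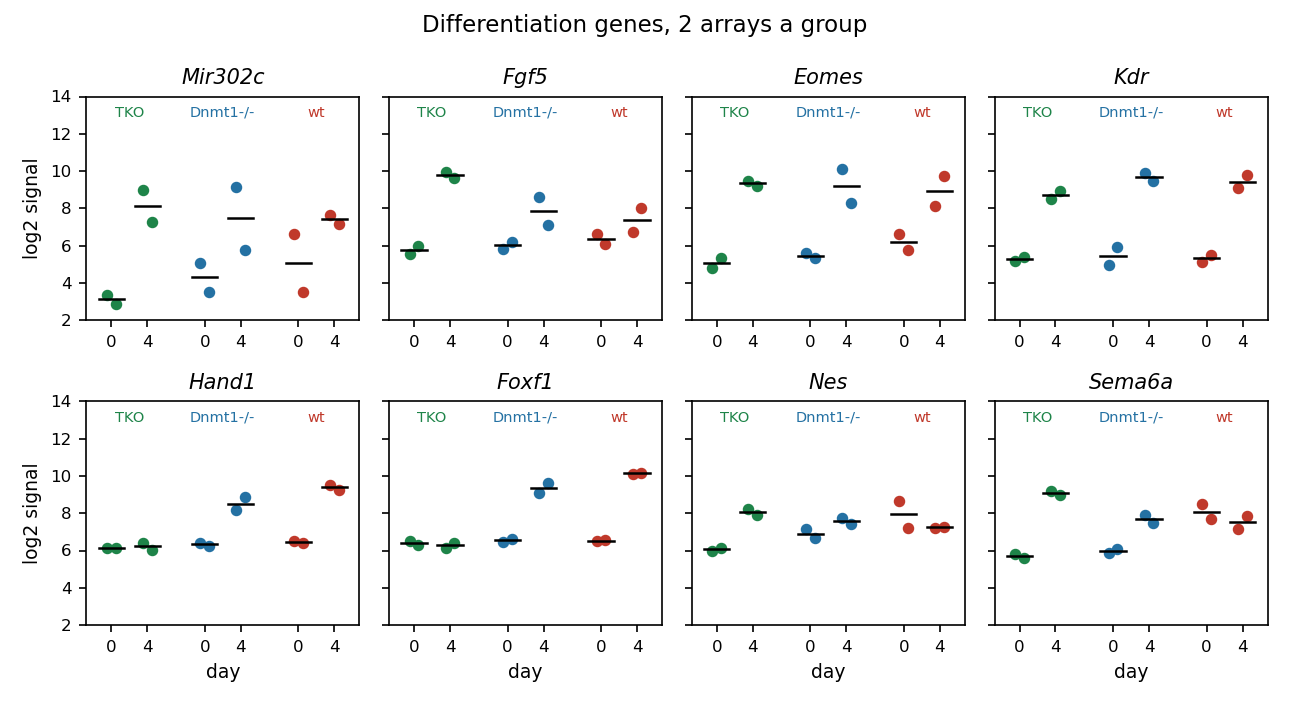
Log2 signal (y axis) of 8 differentiation genes at day 0 and day 4 (x axis) in TKO, Dnmt1-/- and wt cells, with 1 point per array and a line at the mean of 2 arrays. Mir302c, Fgf5, Eomes, Kdr, Nes and Sema6a rise in both TKO EB arrays, while Hand1 and Foxf1 stay between 6.04 and 6.53 in TKO cells and rise in both other lines.

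Foxf1, the forkhead factor of lateral plate and splanchnic mesoderm, stood at 6.53 and 6.30 in TKO ESCs and 6.13 and 6.42 in TKO EBs, and went from 6.49 and 6.58 to 10.09 and 10.18 in wt and from 6.48 and 6.64 to 9.07 and 9.61 in Dnmt1-/- cells. Its TKO change was lower than the wt change by -3.73 ± 0.27 (limma adjusted p = 2.2e-04). Hand1, a helix-loop-helix factor of heart, lateral mesoderm and trophoblast, stood at 6.14 and 6.14 and 6.39 and 6.04 in TKO cells against 6.50 and 6.41 and 9.53 and 9.24 in wt cells (-2.85 ± 0.37, limma adjusted p = 0.0056). The TKO arrays of the 2 days overlapped for both genes, and the wt arrays of the 2 days were at least 2.74 apart. Bmper, an extracellular BMP modulator of endothelial precursors, differed by -2.61 ± 0.29, Rgs5, a pericyte gene, by -2.34 ± 0.37, and Gata4, of heart and endoderm, by -1.67 ± 0.36. The differences of Foxf1, Hand1 and Bmper held in all 8 fits without 1 TKO or wt array, while that of Rgs5 was lost in 1 and that of Gata4 in 7. Cd34, the progenitor sialomucin, ran the other way (1.92 ± 0.31): it was 7.16 and 6.90 and 7.84 and 8.06 in TKO cells and fell by 1.004 in wt cells.

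Of 31 measured genes of endoderm and visceral endoderm, 5 were called higher and 1 lower, with a median of 0.50. Cxcr4, the chemokine receptor of definitive endoderm and mesoderm, rose from 6.01 and 6.24 to 7.20 and 7.80 (1.37 ± 0.22), whereas wt EBs reached 10.13 and 10.56, and the TKO change was lower by -2.91 ± 0.31 (limma adjusted p = 0.0033). Pdgfra was the other receptor gene of the list that was called. Gata6, the factor of primitive endoderm, rose from 6.17 and 6.53 to 7.57 and 7.46. Afp, a serum protein of visceral endoderm, went from 5.0004 and 5.20 to 5.79 and 7.25, so that its 2 EB arrays were 1.47 apart. Ttr, another secreted protein of that tissue, was higher in both EB arrays (6.67 and 7.44) than in the ESC arrays (4.89 and 5.15) but not called (2.03 ± 0.62), and Sox17 (0.58 ± 0.20) and Apoa1 (0.17 ± 0.31) were not called. Dab2 (1.54), an endocytic adaptor of that tissue, was called higher and the X-linked Trap1a (-1.30) lower, Dab2 not without either ESC array or EB replicate 2 (1.15 to 1.58) and Trap1a not without ESC replicate 1 or either EB array (-1.54 to -0.96). Gata6 lost its call without ESC replicate 1 (0.98) or either EB array (1.11 and 1.21), and Afp without either ESC array (1.32 and 1.52) or EB replicate 2 (0.69). Of 18 genes of parietal endoderm and basement membrane, 2 (Fst and Snai1) were called higher and none lower, with 4 lower at an unadjusted p under 0.05.

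Trophoblast genes gave 6 called higher and 3 called lower of 24. Those higher were Eomes, Krt18, Krt8 (1.92), Krt19 (1.90), Peg10 (1.45) and Gata3 (1.02), most of which are also used outside trophoblast, and those lower were Phlda2 (-1.34), Tfeb (-1.25) and Ascl2 (-1.07). The markers chosen for trophoblast were Cdx2, Elf5, Gata3 and Tpbpa, of which Gata3 alone was called higher in TKO cells. Elf5 (5.03 and 5.13 in ESCs and 5.10 and 5.18 in EBs) and Tpbpa (3.38 and 3.24 and 3.30 and 3.32) lay below the array medians on all 4 arrays and were not called. Cdx2, given above with the primitive streak, was not called either. In wt cells 9 of the 24 were called higher and none lower, and in Dnmt1-/- cells 10 and 1. The summed linear signal of these 24 genes went from 3967 and 3964 to 6735 and 7340 in TKO cells. It went from 8961 and 5504 to 16708 and 15804 in wt cells, and from 4692 and 4303 to 12149 and 14722 in Dnmt1-/- cells. Calls lost without 1 TKO array were those of Krt8 (1.67 to 2.17), Krt19 (1.77 to 2.03) and Ascl2 (-1.15 to -0.99) for any array, Gata3 (0.70 to 1.33) for all but ESC replicate 1, Phlda2 (-1.62 to -1.06) for all but EB replicate 2, and Peg10 without ESC replicate 1 (1.37) or EB replicate 2 (1.26). The summed linear signal of 24 fibroblast and feeder genes was 1777 and 1934 in TKO ESCs and 2836 and 2902 in TKO EBs, with 2 of 24 called higher (Ccn1 and Thbs1) and 1 lower (Timp1). Ccn1 held without any 1 TKO array, and Thbs1 (1.72 to 2.04) and Timp1 (-1.28 to -1.07) did not. In wt ESCs the same sum was 4980 and 2852, so that wt ESC replicate 1 stood above every other array of day 0 and day 4. The part of such cells in the differences from wt was not tested. A fit without that array cannot show it, since leaving out any 1 TKO or wt array lowered the number of called differences.

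Neural genes were mixed. Of 32 measured, 8 were called higher and 3 lower, with a median of -0.09. In wt cells 1 was called higher. Nes, the intermediate filament nestin of progenitors, rose from 5.98 and 6.13 to 8.20 and 7.93 (2.02 ± 0.35, limma adjusted p = 0.0045), and its change exceeded that in wt cells, which went from 8.67 and 7.23 to 7.22 and 7.28, by 2.72 ± 0.49 (called, but lost in 6 of the 8 fits without 1 TKO or wt array). Fabp7, a lipid carrier of radial glia, rose from 4.46 and 4.39 to 6.26 and 5.81, and the adhesion gene Nrcam from 5.43 and 5.21 to 7.09 and 6.52. Cxcl12 (1.43), Hes6 (1.09), Otx2, Sox11 and Fzd3 were the others called higher. Sox1 (-0.15 ± 0.17) and Pax6 (-0.32 ± 0.27), which define neural progenitors, were not called, and their EB arrays stood at 7.27 and 6.97 and 6.54 and 6.59. Tubb3 (-1.24), the neuronal tubulin, Stmn2 (-1.29), a microtubule regulator, and Gbx2 were called lower.

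Filament genes of neurons, outside that list, were among the largest TKO rises or differences. Nefm went from 5.66 and 5.05 to 9.30 and 8.17 and Nefl from 7.15 and 6.34 to 9.74 and 8.81, while wt cells changed by -0.93 and -1.94, neither of which was called. The difference was called for Nefl (4.47 ± 0.89, limma adjusted p = 0.026, lost in 7 of the 8 fits without 1 array) and not for Nefm (4.31 ± 1.13, limma adjusted p = 0.094). The replicates were 0.61 to 1.13 apart at each time for both genes, and neither rise was called without any 1 TKO array (2.81 to 3.94 and 2.07 to 2.99). Of the called neural genes, only Sox11 held in all 4 of these fits. Nes (1.88) and Fzd3 (1.12) were lost without EB replicate 1 alone, Hes6 without ESC replicate 1 (1.01) or EB replicate 1 (0.87), Nrcam (1.19 to 1.77) and Cxcl12 (0.90 to 1.95) without either ESC array or EB replicate 1, and Fabp7 (1.39 to 1.83), Tubb3 (-1.41 to -1.07) and Stmn2 (-1.39 to -1.19) without any array.

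Of 35 measured germ line genes, 10 were called lower and 2 higher, with a median of -0.58, against -0.05 over all genes. In wt cells 15 were called lower, with a median of -0.85. Smc1b, a cohesin subunit of meiosis, fell from 7.28 and 7.27 to 5.08 and 5.18 (-2.15 ± 0.26, limma adjusted p = 5.3e-04). Ctcfl (Boris), the testis relative of Ctcf, fell from 7.31 and 7.35 to 5.60 and 5.42, Piwil2, a Piwi protein that guards against transposons, from 8.16 and 8.13 to 6.60 and 6.47, and Tdrd12, a Tudor protein of the same pathway, from 10.54 and 10.53 to 7.996 and 8.61. The 2 arrays of a day were within 0.61 of each other for each of these 4, and all 4 calls held without any 1 TKO array. Smc1b, Ctcfl and Efhc2 started from higher signals in TKO ESCs than in wt ESCs (4.79 and 4.82, 5.29 and 5.40 and 5.15 and 5.63 in wt), and their signals in TKO EBs were still above those of both wt EB arrays. For Ctcfl and Efhc2 the TKO change was lower than the wt change, by -1.61 ± 0.27 and -2.14 ± 0.27, and for Smc1b the difference of -1.36 ± 0.36 was not called (limma adjusted p = 0.1).

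The other germ line genes called lower were Dnmt3l (-2.09), Hormad1 (-1.68), Mael (-1.51), Stk31 (-1.20), Rpl10l (-1.15) and Stag3 (-1.09). Hormad1 (of the meiotic chromosome axis) fell from 8.38 and 7.93 to 6.65 and 6.30, and Stag3, the partner of Smc1b in meiotic cohesin, from 8.44 and 8.50 to 7.36 and 7.40. Mael (-1.61 to -1.41) and Stag3 (-1.12 to -1.06) lost their calls without any 1 TKO array, Hormad1 (-1.46 and -1.51) and Stk31 (-0.97 and -0.95) without ESC replicate 1 or EB replicate 2, Dnmt3l without ESC replicate 1 or EB replicate 1, and Rpl10l without all but ESC replicate 2 (-1.68 to -0.63). Tex15, a gene of meiosis and transposon silencing, rose from 5.50 and 5.37 to 6.95 and 6.63 (1.35 ± 0.20), and Slc25a31, the testis ADP/ATP carrier, from 6.59 and 6.92 to 8.14 and 7.61, whereas it fell in wt cells (-1.53). The difference of Slc25a31, 2.65 ± 0.39, held in all 8 fits without 1 TKO or wt array, but its TKO rise was not called without either ESC array (0.95 and 1.28) or EB replicate 1 (0.85). Ddx4 (Vasa) stood at 7.51 and 7.34 and 7.82 and 7.27 in TKO cells and fell in wt cells (-2.28), a difference of 2.40 ± 0.37 that held in all 8 as well.

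The promoters of 3 meiotic chromosome genes that fell together are given, since germ line genes are known to be controlled by DNA methylation of CpG-rich promoters and by the E2f6 and Mga-Max repressors, which bind TCCCGC and the E-box CACGTG. Each is the 250 bases before the first start listed by RefSeq (GRCm38.p6), 5′ to 3′ on the strand of the gene, with CACGTG and TCCCGC (or GCGGGA, its reverse complement) in capitals. Smc1b lies on the minus strand (chr15:85131958-85132207), Hormad1 (chr3:95559427-95559676) and Stag3 (chr5:138280259-138280508) on the plus strand.
Smc1b: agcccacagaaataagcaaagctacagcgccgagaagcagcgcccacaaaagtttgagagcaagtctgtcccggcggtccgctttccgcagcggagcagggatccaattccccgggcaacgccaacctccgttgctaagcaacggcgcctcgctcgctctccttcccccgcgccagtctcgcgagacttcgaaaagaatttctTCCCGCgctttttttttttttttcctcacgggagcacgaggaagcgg
Hormad1: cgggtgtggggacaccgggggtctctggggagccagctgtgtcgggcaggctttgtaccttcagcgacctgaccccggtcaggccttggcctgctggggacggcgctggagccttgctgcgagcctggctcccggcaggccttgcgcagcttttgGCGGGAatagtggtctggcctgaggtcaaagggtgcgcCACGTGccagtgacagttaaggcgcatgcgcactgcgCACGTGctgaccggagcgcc
Stag3: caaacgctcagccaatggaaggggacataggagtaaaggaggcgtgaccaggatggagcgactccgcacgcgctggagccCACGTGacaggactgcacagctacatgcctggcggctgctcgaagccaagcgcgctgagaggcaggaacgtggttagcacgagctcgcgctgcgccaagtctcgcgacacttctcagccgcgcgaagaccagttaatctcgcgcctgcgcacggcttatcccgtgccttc
Hormad1 holds CACGTG at 2 places and GCGGGA at 1, Stag3 holds CACGTG at 1 and Smc1b TCCCGC at 1. The counts of CG were 25, 19 and 26 in these 3, against a median of 11 over the 15614 genes measured here with a promoter in the table. Over the 8 germ line genes called lower that have one the median was 18.5, and over the 22 not called it was 14. Among the 8, Dnmt3l (5), Tdrd12 (6) and Rpl10l (8) lay below 11. Of these 8 genes called lower, 4 hold CACGTG and 4 hold TCCCGC, and 6 hold at least 1 of them. Of 22 not called, 7 hold CACGTG, 5 hold TCCCGC and 10 hold at least 1. Over all 15614 promoters the shares are 7.03% for CACGTG, 23.3% for TCCCGC and 28.2% for at least 1, and neither motif contains the other. No test was made on these counts, and a match is no evidence of binding.

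X-linked germ line families were called lower or not at all. Of 10 measured genes of the Xlr, Magea and Rhox families, Magea5 (5.19 and 5.03 to 3.68 and 3.78), Magea6 (4.51 and 4.26 to 3.15 and 3.04) and Magea4 (6.82 and 6.32 to 5.54 and 5.53) were called lower and none higher, with Xlr (1.62 ± 0.61) higher at an unadjusted p under 0.05. All 3 Magea calls were lost without ESC replicate 1 or either EB array (-1.43 to -0.79), that of Magea5 also without ESC replicate 2 (-1.46), and members of this family are near-identical in sequence, so that probe sets may share signal. Of 13 measured genes of the two-cell-like state, 1 (Dppa2) was called lower and none higher, with a median of -0.10, while an unadjusted p under 0.05 was reached by 2 genes that were higher and 4 that were lower.

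Genes of DNA methylation and demethylation showed 3 falls and 1 rise of 16. Tet1, the dioxygenase of ESCs that oxidises 5-methylcytosine, fell from 10.69 and 10.77 to 8.92 and 9.31 (-1.62 ± 0.23, limma adjusted p = 0.0014), and Tet2 from 8.34 and 8.11 to 5.69 and 6.32 (-2.22 ± 0.33). Both EB arrays were at least 1.39 below the ESC arrays, and both calls held without any 1 TKO array. Their falls in wt cells were -2.32 and -1.89, and neither difference was called. Tet3 stood at 6.17 and 5.75 and 5.95 and 5.96. Dnmt3l, the cofactor of the missing Dnmt3 enzymes, fell from 11.32 and 11.06 to 8.61 and 9.58. The signal of the mutant Dnmt3b locus rose from 7.33 and 7.45 to 8.88 and 8.58, while those of Dnmt3a (-0.40 ± 0.22), Dnmt1 (0.16 ± 0.16) and Uhrf1 (-0.05 ± 0.14), which guides Dnmt1, were not called. Dnmt3b and Dnmt3l lost their calls without ESC replicate 1 (1.29 and -1.97) or EB replicate 1 (1.20 and -1.61).

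Imprinted genes, whose parental marks are methylation of DNA, moved in both directions. Of 25 measured, 8 were called higher and 3 lower, with a median of 0.17. In wt cells 7 of the 25 were called higher and none lower, and the same counts were found in Dnmt1-/- cells. Nnat, a paternally expressed proteolipid, rose from 5.66 and 6.04 to 8.26 and 8.03 (2.29 ± 0.33), Magel2 from 6.30 and 6.29 to 7.996 and 8.16, and the zinc finger gene Peg3 from 8.30 and 8.43 to 9.89 and 10.40. Plagl1 (1.67), Peg10 (1.45), Sgce (1.30), Ndn (1.29) and Mest (1.05) were called higher as well. All 8 are known as paternally expressed, but so is Igf2, which was not called. The share of such genes in the list was not counted, and the arrays do not tell the parental copies apart. Grb10, an adaptor that restrains insulin and growth factor receptors and is maternally expressed in most tissues, fell from 8.24 and 8.34 to 6.66 and 6.70 (-1.61 ± 0.17, limma adjusted p = 3.9e-04). The maternally expressed Phlda2 and Ascl2 fell too.

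Igf2, the paternally expressed growth factor, did not rise in TKO cells. It stood at 6.55 and 6.80 in ESCs and 6.09 and 6.37 in EBs, while wt cells went from 7.48 and 7.19 to 10.81 and 10.64 and Dnmt1-/- cells from 6.46 and 6.53 to 7.35 and 8.68. The TKO change was lower than the wt change by -3.83 ± 0.45 (limma adjusted p = 0.0036). Grb10 differed by -2.22 ± 0.24 in the same direction, and both differences held in all 8 fits without 1 TKO or wt array. Magel2 (1.80 ± 0.30), Nnat (2.15 ± 0.46) and Plagl1 (2.28 ± 0.43) differed the other way and were lost in 4 to 7 of them. The calls within TKO cells of Nnat, Magel2, Peg3, Sgce and Grb10 held without any 1 TKO array, Ndn and Plagl1 were not called without ESC replicate 2 (1.20 and 1.55) or EB replicate 1 (1.19 and 1.69), Peg10 not without ESC replicate 1 (1.37) or EB replicate 2 (1.26), Mest (0.95 to 1.15) and Ascl2 (-1.15 to -0.99) not without any array, and Phlda2 (-1.62 to -1.06) not without either ESC array or EB replicate 1. H19 was not analysed here.

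Of 27 measured adhesion genes of epithelial and mesenchymal type, 9 were called higher and none lower, with a median of 0.56 (1 was lower at an unadjusted p under 0.05). On the mesenchymal side, Cdh11 went from 5.90 and 5.24 to 7.52 and 7.82, Cdh2 from 5.96 and 5.86 to 8.52 and 8.25, and Zeb2, a repressor of E-cadherin, from 4.81 and 4.85 to 6.10 and 6.09. On the epithelial side the claudin genes Cldn6 (8.81 and 9.47 to 11.02 and 10.89) and Cldn7 (7.03 and 7.29 to 8.998 and 8.55) and the keratin genes Krt8 and Krt18 rose. Cdh1, E-cadherin itself, was kept at 10.09 and 10.38 and 10.66 and 10.69 in TKO cells and fell in wt cells (-1.37), a difference of 1.81 ± 0.30 that was lost in 4 of the 8 fits without 1 TKO or wt array. Cdh11 rose far less than in wt cells (5.18), with a difference of -3.07 ± 0.38 (limma adjusted p = 0.0047) that held in all 8. Cdh11, Cdh2, Zeb2, Cldn6 and Krt18 were called in each fit without 1 TKO array, and Cldn7 was not called without EB replicate 1 (1.39).

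Notch pathway genes gave 4 called higher of 17 and none lower, with 1 lower at an unadjusted p under 0.05. The target Nrarp rose from 5.34 and 5.19 to 7.02 and 6.70, the target Hey1 from 5.71 and 5.56 to 7.60 and 7.54, and the receptor Notch2 from 7.08 and 7.04 to 8.17 and 8.37. The fourth was Hes6. Hey1 was not called without ESC replicate 2 (1.86) or EB replicate 1 (1.91), and Hes6 not without ESC replicate 1 (1.01) or EB replicate 1 (0.87). Of 23 p53 targets and apoptosis genes, Casp8 (4.82 and 5.003 to 6.74 and 6.53) and Plk2 (1.21) were called higher and none lower, none being lower at an unadjusted p under 0.05 either. Plk2 was not called without ESC replicate 2 or either EB array (0.73 to 1.68).

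In 6 lists no gene was called by limma in either direction. For hypoxia and glycolysis (28 genes) 1 was higher and 2 lower at an unadjusted p under 0.05, for sterol and fatty acid synthesis (21 genes) 4 and 1, for cell cycle and replication (28 genes) 1 and 4, for the Hox clusters (22 genes) 0 and 1, for Polycomb (24 genes) 2 and 6, and for interferon response and viral sensing (24 genes) 1 and 4. The medians ran from -0.23 for the Hox clusters to 0.16 for the sterol genes. In wt cells 5 hypoxia genes, 6 sterol genes and 2 Hox genes were called higher over the same days. There 4 Polycomb genes, 2 interferon genes and 1 cell cycle gene were called lower. The TKO change was called higher than the wt change for 2 cell cycle genes and 2 Polycomb genes, and lower for 1 Hox gene. Within these lists the TKO change of the Polycomb gene Phc1 differed from that in wt cells (1.84 ± 0.28, limma adjusted p = 0.0084): it stood at 10.24 and 10.23 and 9.96 and 10.02 in TKO cells and fell in wt cells (-2.08). Hoxb2 rose in wt EBs (1.94) and stood at 5.12 and 5.38 and 5.10 and 4.88 in TKO cells, a difference of -2.21 ± 0.46. The first of these held in all 8 fits without 1 TKO or wt array, and that of Hoxb2 was lost in 7.

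Of the 540 genes called higher in TKO cells, 187 (34.6%) were called higher in wt cells, which is 31.1% of the 602 called there. Of the 232 called lower in TKO cells, 149 (64.2%) were called lower in wt cells, 26.9% of the 553 called there. The 2 comparisons share no array. Over the 602 genes called higher in wt cells, 92.2% changed in the same direction in TKO cells, and the median ratio of the TKO change to the wt change was 0.50. Over the 553 genes called lower in wt cells, 83.7% changed in the same direction and the median ratio was 0.40. The Dnmt1-/- cells, measured against the same 2 sets, had a median ratio of 0.86 for both. Sets chosen on wt values favour large wt changes. Over the genes called in TKO cells, the median ratio of the wt change to the TKO change was 0.49 for those higher and 0.96 for those lower, so these ratios are a description that depends on the set.

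**Figure D5:**
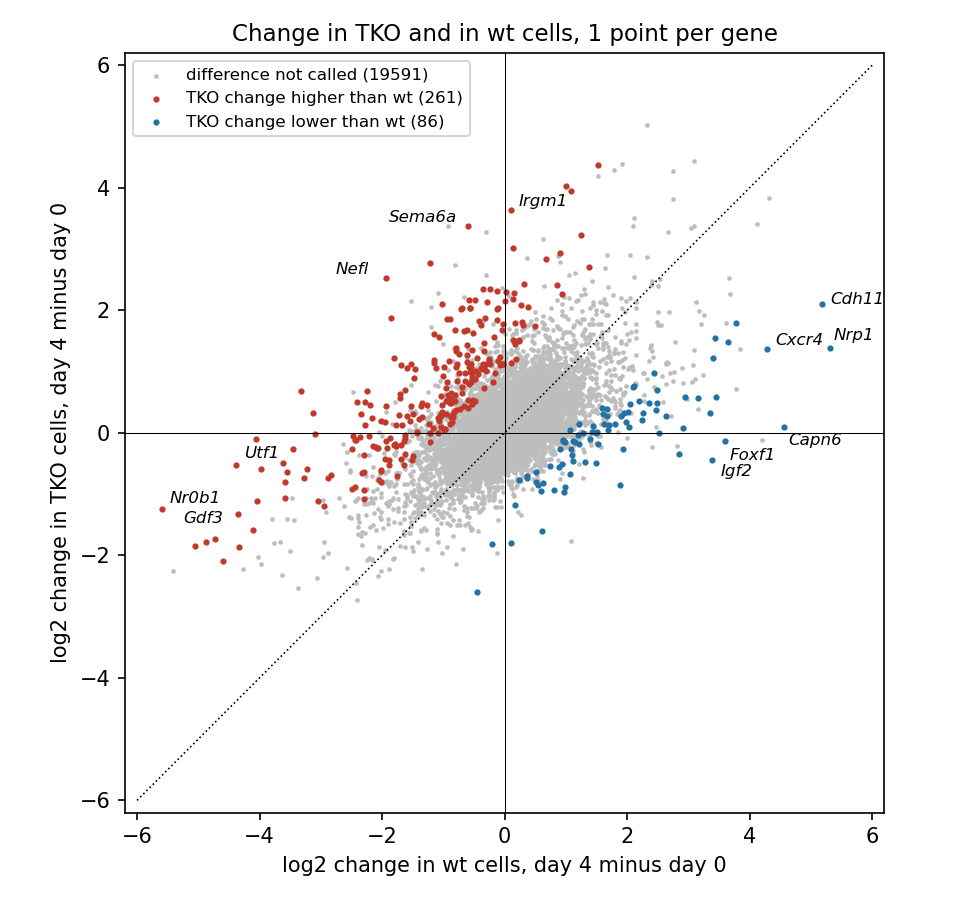
Log2 change from day 0 to day 4 in wt cells (x axis) and in TKO cells (y axis), 1 point per gene, with genes whose changes differed by a call in colour and the line of equal change dotted. Of the 347 coloured points, 218 lie nearer to 0 on the TKO axis than on the wt axis: Utf1 is at -0.52 in TKO and -4.39 in wt cells, and Foxf1 at -0.13 and 3.60.

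The difference between the TKO and the wt change was tested directly. It was called for 491 probe sets (1.38%), 379 higher (1.07%) and 112 lower (0.315%), and for 347 genes (1.74%). The largest group of these genes, 102, fell in wt cells and was not called in TKO cells, and another 11 fell in both but less in TKO cells. A second group of 90 rose in TKO cells and was not called in wt cells, and 9 rose in TKO cells and fell in wt cells. These 9 include Slc25a31 and Thbs1, a matrix protein that went from 5.84 and 5.90 to 7.59 and 7.91 in TKO cells and from 9.29 and 7.67 to 6.59 and 6.68 in wt cells. On the other side, 57 genes rose in wt cells and were not called in TKO cells, and 6 rose in both but less in TKO cells. The largest TKO excesses among genes not yet described were those of Enpp3 (3.96 ± 0.49), an ectonucleotidase that stood at 9.09 and 9.27 and 9.28 and 8.88 in TKO cells and fell in wt cells (-4.06), of Slc27a2 (3.47 ± 0.52), a fatty acid transporter at 9.21 and 9.02 and 9.57 and 9.33, and of Irgm1 (3.53 ± 0.60), an immunity GTPase that rose from 4.79 and 4.94 to 8.71 and 8.28. Sema6a, at 3.96 ± 0.37 (limma adjusted p = 0.0024), rose from a TKO ESC signal below that of wt ESCs (8.47 and 7.71). Of the 73 genes named here with a called difference from wt, 30 held it in all 8 fits without 1 TKO or wt array, Enpp3, Slc27a2 and Sema6a among them, while that of Irgm1 was lost in 5 and that of Thbs1 in 7. The number of probe sets with a called difference was between 131 and 307 in these fits.

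The largest TKO deficit was that of Capn6, a calpain of embryonic muscle and trophoblast, which stood at 5.01 and 5.16 and 4.90 and 5.46 in TKO cells and went from 4.32 and 4.74 to 9.17 and 9.01 in wt cells (-4.46 ± 0.60, limma adjusted p = 0.0056). Nrp1, a semaphorin and VEGF coreceptor, went from 4.90 and 5.10 to 6.02 and 6.73 in TKO cells, which was not called, and from 4.79 and 4.87 to 10.31 and 9.98 in wt cells (-3.93 ± 0.63). Prdm6, a smooth muscle regulator, stood at 5.23 and 5.12 and 5.81 and 5.70 against 5.22 and 5.89 and 9.10 and 8.92 (-2.88 ± 0.44). TKO signals of Capn6 and Prdm6 in EBs lay at least 3.11 below the wt signals. With Cdh11, Igf2, Foxf1, Cfc1, Msx2, Cxcr4 and Hand1 these make up the 10 largest deficits, and all but Nrp1 (lost in 2) held in all 8 fits without 1 TKO or wt array.

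Dnmt1-/- cells keep Dnmt3a and Dnmt3b. Of the genes called higher in TKO cells, 277 (51.3%) were called higher in Dnmt1-/- cells, 47.4% of the 585 called there (2.93% of all genes), and of those called lower 190 (81.9%) were called lower, 35% of the 543 called there (2.72%). No gene was called in opposite directions. A difference between the changes was called for 11 probe sets (0.031%), 5 higher (0.0141%) and 6 lower (0.0169%) in TKO cells, which are 9 genes and 1 probe set without a symbol, Foxf1 having 2 probe sets. At an unadjusted p under 0.05 there were 2240. The TKO change was lower for Cfc1 (-3.13 ± 0.32), Foxf1 (-2.91 ± 0.27), Cxcr4 (-2.74 ± 0.31), Bmper (-2.41 ± 0.29) and the extracellular matrix gene Fbln2 (-1.47 ± 0.20). It was higher for Abcc4 (2.10 ± 0.31), a cyclic nucleotide exporter, Pgap1 (1.87 ± 0.27), which remodels GPI anchors, Syt11 (1.69 ± 0.22), a synaptotagmin, and Plcd1 (1.40 ± 0.19), a phospholipase C. All 5 genes that were lower rose in Dnmt1-/- EBs and, Cxcr4 apart, were not called in TKO EBs. The Dnmt1-/- EB arrays differed from each other at many genes (Mir302c at 9.16 and 5.78 and Fgf5 at 8.60 and 7.13). Without Dnmt1-/- EB replicate 1, 196 probe sets had a called difference, 140 higher and 56 lower, and without 1 of the other TKO or Dnmt1-/- arrays 1 to 9. Foxf1 was the one gene of the 9 whose difference held in all 8 of these fits, and the others were lost in 3 to 7.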

How the data were processed

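RNA of wt, Dnmt1-/- and TKO ESCs and EBs was extracted with Trizol and hybridised to Affymetrix GeneChip Mouse Gene ST arrays. The authors deposited log2 values for 35512 probe sets, made by RMA (background correction, normalization between arrays and a summary over probes) according to the submitters' processing notes. Neither its version nor the genome build is stated in these sources. RMA sets all arrays to 1 distribution, so a change of total RNA per cell would not be seen.

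The deposited log2 values were fitted with limma 3.58.1 in R 4.3.3, with 1 mean for each of the 9 groups over all 18 arrays (residual degrees of freedom 9, prior 3.32). Values are printed to 2 decimals, or to more where that would leave a whole number. The median SE was 0.203 for the TKO change and 0.287 for a difference of changes. Calls needed at least a 2-fold change and a Benjamini-Hochberg adjusted p under 0.05, as in the study's methods. The difference between genotypes was tested as the difference of the 2 changes. The methods call the 2 arrays of a group independent experiments, and the number of arrays limits the precision. The fit was tested on simulated data.

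Gene symbols came from GEO's platform annotation: 21789 probe sets have 1 symbol, 1621 several and 12102 none, and only those with 1 were named, each gene by its probe set with the highest mean signal. Genes named were those with the 15 largest rises and 15 largest falls, the 10 largest differences of the TKO change in each direction, genes of the study's text and members of 29 lists. The comparison, the lists and the named genes were chosen with earlier results of these data known. Alternatives were array medians, quantile normalization, the compared arrays alone, a filter on the lowest 30% of signals, a block for the replicate number, a single probe set for each gene, another variance model, a joint false discovery rate, and each array left out. Where an array was left out, the remaining array of its group was assumed to vary like those of the other groups. Promoters and microRNAs came from RefSeq (GRCm38.p6).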

Additional observations from a re-analysis of the deposited data

Results flagged for a closer look

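The change from day 0 to day 4 differed between TKO and wt cells at 491 probe sets, and between TKO and Dnmt1-/- cells at 11, by limma's test of the difference of the 2 changes. The genes described above that had such a difference are given here with the TKO change minus the change of the other genotype, on the log2 scale.

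Higher values belong first to genes that fell in wt cells and were not called in TKO cells. Those that held in each of the 8 fits without 1 TKO or wt array were Nr0b1 (4.36), Enpp3 (3.96), Utf1 (3.88), Slc27a2 (3.47), Lefty1 (3.38), Abcc4 (2.78), Ddx4 (2.40), Phc1 (1.84) and Syt11 (1.74). The others, lost in 3 or more of the 8, were Lefty2 (4.004), Dppa5a (3.11), Sox2 (2.79), Dppa4 (2.52), Nodal (2.16), Cd34 (1.92), Cdh1 (1.81) and Klf5 (1.42). Genes that fell in both were Gdf3 (3.03) and Dppa2 (2.92), which held, and Zfp42 (3.21), Esrrb (2.52), Dnmt3l (2.50) and Klf2 (1.75), which did not.

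Genes called higher in TKO cells and not called higher in wt cells form the second set. Not being called does not mean that a gene stayed level in wt cells. For Fgf5 and Gdpd3 both wt EB arrays lay above both wt ESC arrays, by 0.10 and 0.78. Sema6a (3.96), Slc25a31 (2.65), Sfrp2 (2.19) and Pgap1 (1.77) held in all 8 fits. Those lost in 3 or more were Nefl (4.47), Pim2 (3.995), Thbs1 (3.73), Irgm1 (3.53), Fgf5 (3.02), Gdpd3 (2.87), Nes (2.72), Mir106a (2.60), Otx2 (2.48), Plagl1 (2.28), Nnat (2.15), Id4 (2.13), Spry2 (2.07), Dnmt3b (1.88), Magel2 (1.80), Sall2 (1.73) and Cldn6 (1.52). Fndc3c1 (2.84), which rose in both, and Plcd1 (1.01), called in neither, were each lost in 7.

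Lower values belong mostly to genes that rose in wt cells. Capn6 (-4.46), Igf2 (-3.83), Foxf1 (-3.73), Cfc1 (-3.20), Cdh11 (-3.07), Msx2 (-3.02), Cxcr4 (-2.91), Prdm6 (-2.88), Hand1 (-2.85), Bmper (-2.61), Fgf3 (-2.53), Bmp7 (-1.98) and Fbln2 (-1.33) held in all 8 fits. Nrp1 (-3.93), Tbx3 (-2.74) and Rgs5 (-2.34) were lost in 1 or 2, and Hoxb2 (-2.21), Aplnr (-2.16), Smad6 (-2.01), Pdgfra (-1.99), Cdx2 (-1.93), Rspo3 (-1.89) and Gata4 (-1.67) in 3 or more. Grb10 (-2.22) and Efhc2 (-2.14) fell in TKO cells and held, and Ctcfl (-1.61), which also fell in TKO cells, and Foxa2 (-1.29), called in neither, were each lost in 5.

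Against Dnmt1-/- cells the lower values were those of Cfc1 (-3.13), Foxf1 (-2.91), Cxcr4 (-2.74), Bmper (-2.41) and Fbln2 (-1.47), and the higher ones those of Abcc4 (2.10), Pgap1 (1.87), Syt11 (1.69) and Plcd1 (1.40). Of these 9, Foxf1 was the one that held in each of the 8 fits without 1 TKO or Dnmt1-/- array.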

How the results depend on the processing

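The count of probe sets called between TKO ESCs and EBs, 1126 as reported, lay between 1049 and 1304 with array medians subtracted, a further quantile normalization, a fit of the compared arrays alone, a filter on low signals, a replicate block, an intensity trend with robust variance, or a joint false discovery rate, and was 841 with 1 probe set per gene. Without 1 TKO array it was 615 to 899 (746 without ESC replicate 1 and 615 without EB replicate 1), the list genes called went from 121 to between 51 and 91, and the genes named here from 138 to between 65 and 96. The differences from wt (491) were 302 with the compared arrays alone, 770 with the replicate block and 131 to 307 without 1 TKO or wt array (157 and 157 without TKO ESC replicate 1 and 2, 225 and 131 without TKO EB replicate 1 and 2, 156 and 299 without wt ESC replicate 1 and 2, 283 and 307 without wt EB replicate 1 and 2). The differences from Dnmt1-/- cells (11) were 0 with the compared arrays alone, 21 with the filter on low signals, 30 with the replicate block, 67 with 1 probe set per gene, 83 with the joint rate and 1 to 196 without 1 array, the highest without Dnmt1-/- EB replicate 1. In the fit with 0 calls, the smaller residual degrees of freedom come from its fewer arrays. The deviations of arrays with the same replicate number were correlated above 0 in 36 of 36 pairs of groups and over 0.1 in 32 (lowest 0.0409, highest 0.501, 0.0585 between TKO ESCs and TKO EBs). This is a hint of pairing from the data, not from the labels, and since not every pair was over 0.1 the replicate block remains an alternative. No called change or called difference of a named gene changed its direction under any alternative. For genes that were not called, a change of sign was counted only where a call arose, so small uncalled changes may differ in sign between the fits. With 2 arrays a group, many single calls rest on each array, and dim signals limit the precision.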
